A study of Mus musculus with 22 samples.

Results

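Livers of mice that had received saline alone for 14 days were compared with livers of mice killed after 1 or 3 days of the same injections. These are the 11 saline arrays out of the 22 in the study, which set diclofenac, a non-steroidal anti-inflammatory drug, against its vehicle. The 11 were chosen by their labels as vehicle controls, and no measured value was used to choose them: 5 livers come from day 14, 3 from day 1 and 3 from day 3. All were male C57BL6 mice purchased at 8 weeks of age, and their age at killing is not given. They received saline daily into the peritoneum, with food and water freely available under a light and dark cycle. The other 11 mice received diclofenac at 30 mg/kg in the same saline and by the same route, again 3, 3 and 5 at days 1, 3 and 14. The labels put 5 mice and the methods 6 in each group, and 3 or 5 arrays of a group were analysed here. Each liver gave 1 Affymetrix array, and the deposited values are linear MAS5 signals, 1 for each probe set. Per the paper, saline mice of the longest course weighed less after the injections than before them. Those of the middle course weighed more after them than before. The sources used here give no clock hour of killing, no scan date and no array batch. Whatever else was shared by the livers of a day (hour, age, body weight change, handling, array batch) cannot be told apart from the days of injection.

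The liver is built mainly of hepatocytes, which make the plasma proteins, store glycogen, burn and build fatty acids, turn ammonia into urea and oxidise foreign compounds. Kupffer cells, the macrophages fixed in its sinusoids, the sinusoidal endothelium and the stellate cells make up most of the rest. Hepatocytes hold a circadian clock in which the transcription factors Arntl, Clock and Npas2 drive their own repressors (the Per and Cry genes and Nr1d1 and Nr1d2), so that many liver transcripts depend on the hour of the day, and they also follow feeding, glucocorticoids and the pulses of growth hormone.

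Tests were run on the 12450 genes whose signal exceeded the array's own median on 3 or more of the 11 arrays. The value compared throughout is the log2 difference of the day 14 livers minus the mean of the day 1 and day 3 groups, and a gene is said to have risen or fallen where its Benjamini-Hochberg adjusted p from limma was under 0.05. By this rule 4979 genes, or 40.0% of those tested, differed: 2175 (17.5%) were higher and 2804 (22.5%) lower at day 14. The counts of rises and falls in each gene list below are to be read beside these shares. The median of all genes was -0.06. At least a 2-fold difference was found in 869 of the called genes, 314 higher and 555 lower, and at least a 4-fold difference in 140. In 2951 genes (23.7%) no liver of day 14 overlapped with any of the 6 earlier livers, 1302 (10.5%) with day 14 above and 1649 (13.2%) with day 14 below. The share of called genes that were higher depended on the scaling and on the probe sets read. It was 43.7% as deposited, 28.7% when each array was centred on its own median and 38.8% after quantile normalization, but 52.9% when the probe sets of a gene were averaged and 53.3% of the called probe sets when each was tested on its own, so which direction held the majority is not settled. Centring moved the median of all genes to -0.16 and quantile normalization to -0.10.

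Fewer genes were called between the earlier days. Day 3 minus day 1 called 91 genes, 0.731% of those tested, against 4223 (33.9%) for day 14 minus day 1 and 3927 (31.5%) for day 14 minus day 3, which share the day 14 livers. The count of 91 is loose: it was 23 to 54 when any 1 of the 6 earlier livers was left out, 12 with the 3' to 5' ratio of the arrays as a covariate and 287 with array weights. Of the 12, only 4 were among the 91. A gene's difference between days 3 and 1 given below was tested without that covariate. Over all genes tested the median absolute log2 difference was 0.31 for day 14 against the earlier days and 0.17 for day 3 against day 1. Among the called genes, 94.2% had a larger absolute difference for day 14 than for day 3 minus day 1, compared with 66.1% of all genes.

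**Figure D1:**
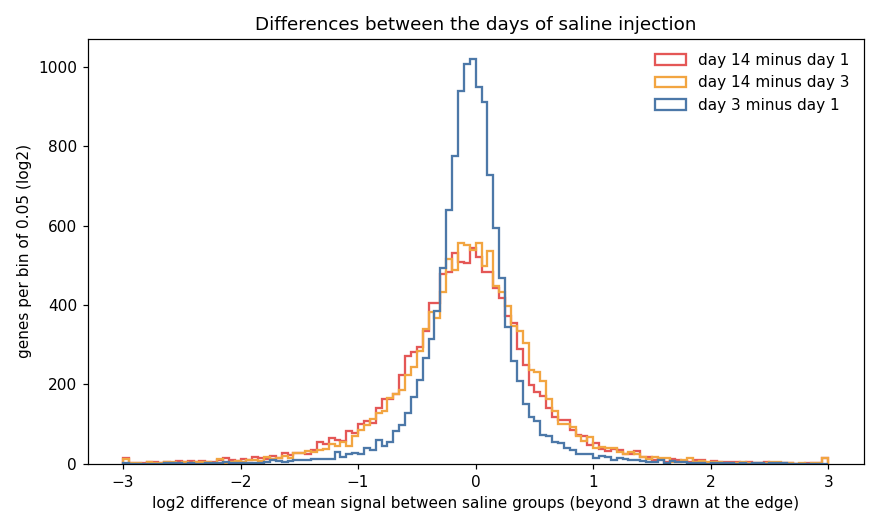
The horizontal axis is the log2 difference of mean array signal between the saline groups named in the key, the vertical axis the number of the 12450 tested genes in each bin. The curve for day 3 minus day 1 is the narrowest, and the curves that hold day 14 spread farther to either side.

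Whole arrays showed the same order. Over the tested genes the correlation of log2 signals was 0.964 to 0.967 between day 1 livers, 0.965 to 0.968 between day 3 livers, 0.955 to 0.972 between day 14 livers and 0.958 to 0.965 between days 1 and 3, and it was 0.920 to 0.945 between a day 14 liver and an earlier one. Signs of array and RNA quality were not equal between days. The probe sets for 18S ribosomal RNA had a mean log2 signal of 12.05 on day 1, 14.68 on day 3 and 15.35 on day 14 (exact permutation test of day 14 against days 1 and 3, two-sided, p = 0.00433, the smallest that 5 against 6 allow). The highest signal on an array was 16.2 ± 0.133 (log2, SD, n = 6) at days 1 and 3 and 16.8 ± 0.243 (SD, n = 5) at day 14 (exact permutation test, p = 0.00433). The 3' to 5' log2 ratio of the Gapdh and beta actin control probe sets was 0.562 to 0.621 on day 1, 0.737 to 0.825 on day 3 and 0.545 to 0.711 on day 14 (exact permutation test of day 14 against days 1 and 3, p = 0.277). Days 1 and 3 did not overlap in it, nor in the hybridisation controls, which stood at 11.47 to 11.62 on day 1, 11.30 to 11.37 on day 3 and 11.29 to 11.58 on day 14 (log2, exact permutation p = 0.952). With the 3' to 5' ratio as a covariate 4105 genes were called for day 14 against days 1 and 3 in place of 4979, but 1631 in place of 3927 for day 14 minus day 3. The part of the 18S and highest signals in the gene results was not tested.

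The genes with the highest signals, which give the baseline of these livers, were those of the secreted and metabolic products of hepatocytes. Signals of different probe sets do not rank transcripts, because each probe set binds its target with its own strength, and the genes are given here as the upper end of the scale alone. Among the 20 with the highest mean were Alb (albumin), the apolipoproteins Apoa1, Apoa2 and Apoe, the transport proteins Ttr and Rbp4, the protease inhibitors Serpina1b and Serpina1c, the fatty acid carrier Fabp1, the cytochromes Cyp2e1 and Cyp3a11, the glutathione transferases Gstp1 and Mgst1, and Bhmt, which remethylates homocysteine. The albumin signal was 48881, 51569 and 51151 on day 1, 47509, 54699 and 48663 on day 3 and 92476, 78006, 78838, 107551 and 118338 on day 14. Every day 14 liver lay above every earlier one (log2 difference 0.90, standard error 0.10, adjusted p = 1.65e-05). Where a gene is given by a pair of ranges, they run from the lowest to the highest of the 6 earlier livers and of the 5 day 14 livers, and a value in brackets alone is its log2 difference. Array medians lay between 75.2 and 89.9, and the size of a difference is uncertain where a group's signals lie near or below them. Apoa1 lay at 62202–73677 in the earlier livers and at 93902–123416 at day 14 (0.66, standard error 0.08, adjusted p = 2.29e-05). For Fabp1, at 64732–73652 and 62936–92161, the groups overlapped and the test was not passed (0.18, standard error 0.09, adjusted p = 0.13). After quantile normalization the differences of Fabp1, Fgb (fibrinogen), Cyp3a11, Gstp1, Serpina1b, Apoe, Ttr, Mgst1 and Uqcrb turned negative, so the direction of the most abundant transcripts rests on the scaling, and Alb kept its direction.

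Of the 11 hepatocyte markers tested, 10 rose and none fell, with a median of 0.61. After quantile normalization 3 rose, 2 fell and the median was 0.07. The 11 markers of this list that are on the array summed to a signal of 481743 to 533244 in the earlier livers and 682405 to 915416 at day 14, and the tissue of every array thus carried its defining transcripts. Markers of hepatocytes near the portal vein included Ass1, Arg1, Hsd17b13 and Alb, the last also in the hepatocyte list. Of these markers 5 of 10 rose with none falling (median 0.50). The median was 0.66 against day 1 and 0.19 against day 3, which share the day 14 livers. Pck1, counted among the 5 rises at 0.55, has no settled direction. Its 2 other probe sets gave 2.56 and -2.83, and 1 was called each way. Among markers of hepatocytes near the central vein 2 of 11 rose and 4 fell (median -0.25), beside 17.5% and 22.5% of all genes. Those that rose were Oat (0.81) and Cyp2e1 (0.55), and those that fell were Gstm3 (-2.45), Lect2 (-1.63), Cyp1a2 (-1.04) and Rgn (-0.68). Glul, the glutamine synthetase of the innermost pericentral cells, had a difference of -0.23 that did not pass.

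The circadian clock genes held some of the largest differences, in opposite directions. Of 17 members tested, 6 rose and 7 fell, with a median of 0.00 that hides the split. Dbp, a PAR-domain transcription factor driven directly by the clock, had signals of 7137, 7867 and 8705 on day 1, 9075, 3779 and 4584 on day 3 and 364, 361, 447, 235 and 204 on day 14. The lowest earlier liver was thus far above the highest of day 14 (-4.40, standard error 0.23, adjusted p = 2.16e-08). Nr1d1, which encodes the haem-binding repressor REV-ERB alpha, gave 323, 288 and 406 on day 1, 399.5, 306 and 193 on day 3 and 13.3, 27, 29.5, 26.5 and 9.58 on day 14 (-4.00, standard error 0.34, adjusted p = 1.22e-06). Its day 14 signals lay below the array median, where the size of a fold is uncertain. Its paralogue Nr1d2 went from 5953–7576 to 2319–2903 (-1.43, standard error 0.08, adjusted p = 3.29e-08), while its other probe set gave 0.47 and was not called.

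The activators moved the other way. Arntl, which encodes BMAL1, had signals of 399, 282 and 242 on day 1, 295, 494 and 600.5 on day 3 and 1069, 1088, 1268, 973 and 1283 on day 14, with no overlap (1.63, standard error 0.17, adjusted p = 7.67e-06), and its second probe set gave 0.53 without a call. Npas2, a partner of BMAL1, rose from 2.76–63.4, which is below the array median, to 173–263 (3.61, standard error 0.63, adjusted p = 0.000447). It was tested only because of its day 14 signals, so the size is uncertain and its call is no support for the direction of the activators. Clock itself rose by 0.60 and the repressor Cry1 by 1.30, the latter from 311–575 to 667–1272. Rora, the activator that competes with Nr1d1 for the same sites, rose by 0.82, and Nfil3, a repressor that opposes Dbp, by 1.34, although 1 of its day 14 livers overlapped with day 3. Among the repressors and outputs, Cry2 fell by 1.39 on the log2 scale, Bhlhe40 by 1.22 and Tef, a relative of Dbp, by 0.98. The mean of the probe sets of Tef gave a difference of 0.12 instead. Per3 fell by 0.82, a call that was lost when any of 6 livers was left out in turn. Per1 (0.45), Per2 (0.15), Ciart (-0.92) and Hlf (-0.00) did not pass. None of the 17 was called between days 3 and 1. Per1 came closest there, with 382, 341 and 173 at day 1 and 702, 586 and 569 at day 3 (log2 1.13, adjusted p = 0.0524).

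**Figure D2:**
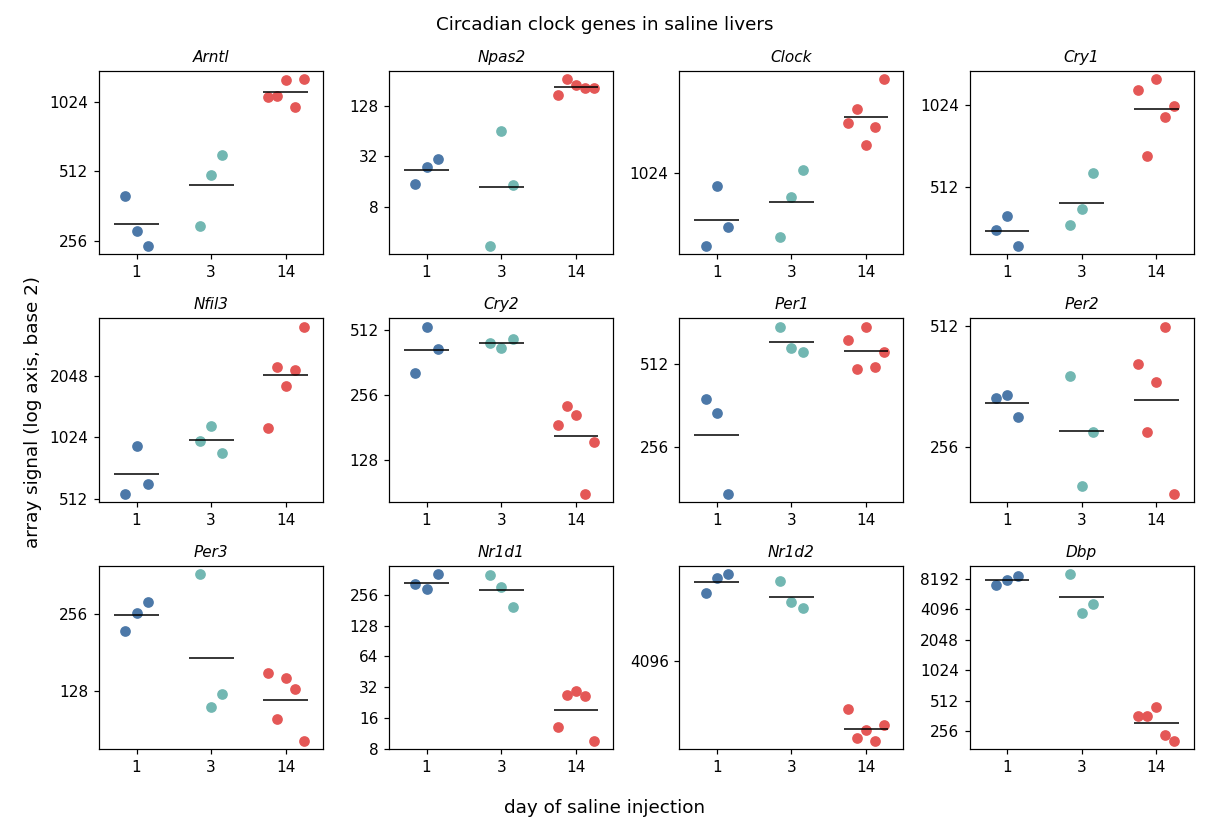
Array signal on a log axis with base 2 (vertical) of 12 clock genes in each saline liver, by day of injection (horizontal). Each point is 1 liver and each line the geometric mean of its group. Arntl, Npas2, Clock and Cry1 lie higher at day 14 with no overlap, Nr1d1, Nr1d2, Dbp and Cry2 lower, and the day 14 points of Per2 fall on both sides of the earlier ones.

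Nr1d1 and Rora act on a short element of DNA, and the windows of 2 clock genes that rose and that carry it are shown for that reason. The letters searched were TAGGTCA on either strand, in windows of 300 bases from 250 before to 50 after each gene start as RefSeq gives them on GRCm38.p6. The element was found for 2 of the 15 tested clock genes with a window and for 2.97% of all 27025 genes with a window. A match is a description, not a site or a cause. Capitals mark it here, as TAGGTCA or, on the other strand, TGACCTA. The Arntl window is chr7:113207261-113207560 on the plus strand and 1 of 2 windows of that gene, and the Nfil3 window is chr13:52980990-52981289 on the minus strand, both read 5′ to 3′ in the direction of transcription.
Arntl: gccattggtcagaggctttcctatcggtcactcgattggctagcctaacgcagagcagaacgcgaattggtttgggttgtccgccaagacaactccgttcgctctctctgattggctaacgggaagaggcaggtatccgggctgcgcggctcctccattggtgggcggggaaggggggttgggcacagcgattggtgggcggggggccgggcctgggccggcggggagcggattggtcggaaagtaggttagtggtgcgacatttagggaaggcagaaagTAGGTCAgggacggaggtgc
Nfil3: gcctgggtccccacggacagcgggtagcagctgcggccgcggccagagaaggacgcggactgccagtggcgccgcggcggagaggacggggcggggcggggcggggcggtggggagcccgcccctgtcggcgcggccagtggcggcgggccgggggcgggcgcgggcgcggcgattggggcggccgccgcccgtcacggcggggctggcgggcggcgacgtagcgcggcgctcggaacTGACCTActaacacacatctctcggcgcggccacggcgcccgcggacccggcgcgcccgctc
The E-box CACGTG, through which Arntl and its partners act, was present for 4 of the 15 genes (Ciart, Cry1, Per1 and Tef) and for 8.09% of all genes. These 4 hold Cry1, which rose, Tef, which fell, and Per1 and Ciart, which did not pass.

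Outputs of the clock in liver metabolism were mixed. Of 14 tested, 4 rose and 6 fell (median -0.39). The solute carrier gene Slc45a3 rose by 1.69, Noct, which encodes nocturnin, by 1.06, and Nampt, a source of NAD, by 0.56. Upp2, a uridine phosphorylase, fell from 14084–19101 to 1697–8578 (-2.15, standard error 0.30, adjusted p = 7.41e-05), and Wee1, a kinase that holds back mitosis, fell by 0.82. Lpin1, a phosphatidate phosphatase, showed 4435, 8447 and 5205 on day 1, 18165, 20412 and 16700.2 on day 3 and 6120.1, 2351, 5818, 5557 and 2396 on day 14. The day 3 livers stood above the rest and days 1 and 14 overlapped. Its difference of -1.34 was made of -0.51 from day 1 and -2.17 from day 3, which share the day 14 livers. Cyp7a1, the rate-limiting enzyme of bile acid synthesis, had 0.64 and did not pass.

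Genes of the fasted liver were higher at day 14. Of 14 members of gluconeogenesis and fasting, 9 rose and none fell (median 0.42). The median was 0.72 against day 1 and 0.25 against day 3, which share the day 14 livers. For day 3 minus day 1 it was 0.41, with 5 members called without the 3' to 5' covariate. In the deposited signals part of the difference was thus present by day 3. G6pc, which releases free glucose, had signals of 2605, 1483 and 1785 on day 1, 4801, 7407 and 8566 on day 3 and 14814, 14316, 17828, 13467 and 17054 on day 14, and the 3 days did not overlap (2.11, standard error 0.16, adjusted p = 3.76e-07). Between days 3 and 1 it also rose (1.82, adjusted p = 0.00395). Igfbp1, a secreted carrier of insulin-like growth factors that insulin represses, behaved alike, with 4151, 1428 and 2592 on day 1, 10866, 20321 and 12637 on day 3 and 25468, 27019, 43278, 23398 and 33822 on day 14 (2.33, standard error 0.25, adjusted p = 6.64e-06). Tat, the tyrosine aminotransferase induced by glucocorticoids, was 6856, 7747 and 6734, then 15851, 18571 and 15983, then 38130.1, 26631, 37819.8, 43534 and 43322 (1.77, standard error 0.11, adjusted p = 9.54e-08). In these 3 genes the difference of day 14 from day 3 and that from day 1, which share the day 14 livers, were 1.20 against 3.02 for G6pc, 1.08 against 3.58 for Igfbp1 and 1.16 against 2.39 for Tat. Pdk4, which blocks the entry of pyruvate into the citrate cycle, rose from 174–294 to 389.8–1079 (1.95) and did not differ detectably between days 3 and 1 (0.05). Pck1, a gene of gluconeogenesis, has no settled direction between its probe sets, as given with the markers near the portal vein. The hormone gene Fgf21 rose from 17.6–178 to 404–979 (2.99, standard error 0.40, adjusted p = 5.59e-05). The part of the change in body weight, named at the start, in these and the other gene results was not tested.

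Glucocorticoid targets gave 8 rises and 3 falls among 18 tested (median 0.45). The list's median was 0.82 against day 1 and 0.25 against day 3, which share the day 14 livers. For day 3 minus day 1 it was 0.60, with 5 members called. Cdkn1a, a target of p53 and of glucocorticoids that arrests the cell cycle, had 172, 115 and 124 on day 1, 294, 391 and 350.1 on day 3 and 2449, 1668, 3025, 3181 and 2594 on day 14. The 3 days stood apart in that order (3.55, standard error 0.16, adjusted p = 9.83e-09), and its second probe set gave 3.30. Sgk1 rose by 0.99 and Tsc22d3 by 0.97, the latter made of 1.48 from day 1 and 0.47 from day 3, since it was already higher at day 3 than at day 1 (1.01, adjusted p = 0.0156). Fkbp5 (0.32) and Zbtb16 (-0.38), which glucocorticoids induce strongly in many tissues, did not pass, and neither did the metallothionein genes Mt1 (0.44) and Mt2 (0.14). The receptor gene Nr3c1 fell by 0.58, and Serpina6, which encodes the corticosteroid-binding globulin of plasma, fell from 4408–7889.9 to 797–2332 (-2.23, standard error 0.24, adjusted p = 7.02e-06).

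Fatty acid oxidation and the targets of PPAR alpha, the nuclear receptor that turns on fat burning, rose nearly throughout: 18 of 22 members were higher, none fell, and the median was 0.93. Ehhadh, a peroxisomal enzyme of beta oxidation, had 7652, 9889.7 and 9323 on day 1, 7621, 11507 and 9420.0 on day 3 and 37574, 32716, 33947, 41579 and 36444 on day 14 (1.99, standard error 0.11, adjusted p = 2.37e-08). All 5 day 14 livers were more than 2-fold above any earlier liver. Acot1, a cytosolic acyl-CoA thioesterase, rose from 1179.8–2749.9 to 6999.7–10564 (2.19), and it was already higher at day 3 than at day 1 (0.91, adjusted p = 0.0156). The omega hydroxylases Cyp4a14 (2.45) and Cyp4a31 (2.21), the carnitine enzymes Cpt2 (1.19) and Cpt1a (0.96) and the lipid droplet gene Plin2 (1.23) were also higher. A second probe set of Cpt2 gave -0.05, and Cpt1a was already higher at day 3 than at day 1 (0.49, adjusted p = 0.0246). Ppara itself had -0.34 and the fatty acid transporter Cd36 0.21, and neither passed. Cidec, a lipid droplet protein of adipocytes and of fat-laden hepatocytes, rose from 42.8–68.1 to 293–1024 (3.34, standard error 0.29, adjusted p = 1.3e-06). It was tested only for its day 14 signals, and with a mean below the array median before, the size is uncertain. Of the other adipocyte markers, Adipoq and Lep were below the array median in every saline liver, and Fabp4 had -0.56 without passing.

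Genes of sterol synthesis were lower at day 14. Of 20 tested members of the pathway and its regulators 17 fell and 1 rose, with a median of -1.68. Idi1, the isopentenyl diphosphate isomerase, had 13771, 4832 and 6618 on day 1, 9151, 4575 and 3122 on day 3 and 598, 657, 419, 397 and 546 on day 14 (-3.60, standard error 0.28, adjusted p = 5.1e-07). The earlier livers differed among themselves by more than 4-fold, and the lowest of them was still well above the highest at day 14. Fdps, which makes farnesyl diphosphate, gave 9389, 4440.0 and 5564 on day 1, 5124, 3305 and 2519.7 on day 3 and 440.2, 488, 504, 518 and 614 on day 14 (-3.18, standard error 0.19, adjusted p = 7.37e-08). Sqle (-2.77), Msmo1 (-2.47), Mvk (-2.39) and Cyp51 (-2.18) are further enzymes of the chain that fell. So did Insig1, which retains the SREBP complex in the endoplasmic reticulum and is itself an SREBP target, from 6403–11182 to 1039.7–1653 (-2.61, standard error 0.15, adjusted p = 4.28e-08). Its relative Insig2, the list's only rise, went up by 1.76. Srebf2, which encodes the main sterol regulator, had 0.24 and Hsd17b7 -0.08, and neither passed. Within a day these genes varied more than most: the median within-day SD over the list was 0.398 on the log2 scale, compared with 0.222 over all genes.

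The transcription factor NF-Y binds the CCAAT box and works beside SREBP on sterol genes, and the windows of a strongly fallen enzyme and of a regulator are given to show it. CCAAT, read on either strand, was found for 16 of the 16 tested sterol genes with a window and for 41.1% of all genes with one. In the lines below, capitals mark each match, written as CCAAT or, on the other strand, ATTGG. The Idi1 window is chr13:8885356-8885655 and the Insig1 window chr5:28071162-28071461, both on the plus strand of GRCm38.p6 from RefSeq.
Idi1: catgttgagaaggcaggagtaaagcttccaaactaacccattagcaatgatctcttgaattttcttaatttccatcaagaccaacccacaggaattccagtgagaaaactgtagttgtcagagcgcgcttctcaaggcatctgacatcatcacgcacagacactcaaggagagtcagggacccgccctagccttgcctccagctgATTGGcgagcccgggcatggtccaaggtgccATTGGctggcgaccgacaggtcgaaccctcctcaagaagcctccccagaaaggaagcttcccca
Insig1: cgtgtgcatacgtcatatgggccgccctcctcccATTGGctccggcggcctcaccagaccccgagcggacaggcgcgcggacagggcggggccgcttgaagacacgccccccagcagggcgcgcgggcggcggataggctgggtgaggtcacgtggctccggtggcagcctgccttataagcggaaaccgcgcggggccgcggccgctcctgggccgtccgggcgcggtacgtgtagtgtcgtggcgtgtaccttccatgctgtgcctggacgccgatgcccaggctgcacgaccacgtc
The E-box CACGTG was present for 4 of the same 16 genes and for 8.09% of all genes with a window. No match shown overlapped with a match to another searched motif.

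In fatty acid synthesis 3 of 17 genes were higher and 7 lower (median -0.21), beside 17.5% and 22.5% of all genes. The share that rose was thus near that of all genes. Srebf1, the lipogenic regulator, fell from 2184–4714 to 546–1003 (-2.21, standard error 0.15, adjusted p = 1.6e-07). Thrsp, which encodes the lipogenic protein Spot 14, fell from 4695–7724 to 479–1668 (-2.80), and Aacs, an acetoacetyl-CoA synthetase, from 443–1063 to 97.3–158 (-2.61). Acly (-0.89), Elovl6 (-0.88) and Mlxipl (-0.74), the carbohydrate-response regulator ChREBP, were lower too. Fasn (-0.02), Scd1 (-0.09) and Acaca (-0.13), the core enzymes of the pathway, did not pass, while Elovl5 rose by 1.22 and Fads2 by 0.70. In glycolysis and glycogen metabolism 2 of 13 rose and 7 fell (median -0.60). Pklr, the pyruvate kinase of liver, had 1422, 1393 and 1259 on day 1, 1634, 969 and 1310.0 on day 3 and 429, 366, 269, 383 and 178 on day 14, with no overlap (-2.08, standard error 0.20, adjusted p = 3.4e-06). The glucose transporter gene Slc2a2 (-1.20), Pfkfb3 (-1.14), Ugp2 (-0.81) and the glycogen phosphorylase Pygl (-0.62) fell, and Ppp1r3c, a glycogen-targeting subunit of protein phosphatase, rose by 1.24.

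Amino acid breakdown and the urea cycle rose in 19 of 32 members and fell in 4 (median 0.55). Mat1a, which makes S-adenosylmethionine, had 20880.3, 27265 and 28106 on day 1, 27374, 27677 and 22701 on day 3 and 60882, 51463, 52999, 63207 and 65801 on day 14 (1.20, standard error 0.10, adjusted p = 7.43e-07). Asl (1.31), Cps1 (0.61) and Arg1 (0.60) of the urea cycle rose. Ass1 had 0.97, but it rose between days 1 and 3 (1.58, adjusted p = 0.0314) and its difference of day 14 from day 3, 0.17, did not pass. Otc, the ornithine transcarbamylase of the same cycle, went against them: its signal was 27234, 29314 and 29249 on day 1, 29698, 29920.0 and 29826 on day 3 and 17728, 18448, 18025, 18139.9 and 16862 on day 14 (-0.71, standard error 0.05, adjusted p = 3.86e-07), and its 2 other probe sets were called the same way. Glycine cleavage (Gldc, 1.11) and Got1 (1.27) were higher. In the amino acid response, the programme that Atf4 drives when amino acids are short, 9 of 18 rose and 3 fell (median 0.62). Asns (1.77), Sesn2 (1.83) and Atf5 (1.60) rose, the last from 4864–6419 to 14499–19993, while the second probe set of Sesn2 gave 0.20 and no call. Chac1, which degrades glutathione and is another Atf4 target, instead fell from 696–1146 to 184–292 (-2.04, standard error 0.13, adjusted p = 9.76e-08), and Trib3 was lower too (-0.84). Atf4 itself rose by 0.62, with 0.12 and no call from its second probe set.

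Growth hormone acts on the liver through Stat5 and pulses in males. Of 17 genes of this axis, 6 rose and 7 fell (median -0.09, or 0.25 with the mean of all probe sets). Cish, a feedback inhibitor induced through Stat5, had 2638, 2121 and 2302 on day 1, 1746, 1553 and 2017 on day 3 and 262, 166, 236, 302 and 337 on day 14 (-3.005, standard error 0.16, adjusted p = 2.16e-08). Socs2, another feedback inhibitor, gave 3874, 3431 and 4694 on day 1, 1991, 4489.8 and 3553 on day 3 and 415, 513, 738, 215 and 608 on day 14 (-2.95, standard error 0.28, adjusted p = 2.49e-06). The highest day 14 liver lay below the lowest earlier one for either gene. Onecut1, a liver transcription factor, fell from 717–1317 to 67.2–179.7 (-3.29, standard error 0.23, adjusted p = 1.81e-07), and Igfbp3 (-1.05) and Igfals (-0.45), carriers of insulin-like growth factor in plasma, were lower. Igf1 (0.09) did not pass. The receptor Ghr has no settled direction: the probe set used gave -0.75, its 2 others -0.55 and 2.41, and their mean 0.37. Igfbp2 (0.98), Bcl6 (1.02), a repressor of Stat5 targets, and the leptin receptor gene Lepr (1.78) rose.

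In rodents the pattern of growth hormone pulses sets the sex bias of the liver, and the sex-biased lists were therefore read beside this axis. Among genes known to be higher in male liver, 8 of 17 fell and 3 rose (median -0.39), beside 22.5% and 17.5% of all genes. Hsd3b5, a male-specific steroid dehydrogenase, had 16519.8, 13225 and 15618 on day 1, 12099, 10596 and 14644 on day 3 and 376, 547, 433, 370.0 and 527 on day 14, and its adjusted p was the lowest of all genes (-4.94, standard error 0.12, adjusted p = 1.53e-11). Serpina12 fell by 2.91 on the log2 scale and Nudt7, which cleaves coenzyme A, went from 31657–42311 to 7383–12745 (-1.93), while Cyp4a12a rose by 0.70. Elovl3 (-0.19) and Cyp7b1 (-0.03) did not pass. Of 24 genes known to be higher in female liver only 10 passed the filter on low values in these male livers, and a gene that is high on 1 day alone passes through that day, so the count of 5 rises and 1 fall among them describes those 10 alone. Sult1e1, the oestrogen sulfotransferase, had 5.34, 30.5 and 4.27 on day 1, 8.81, 8.61 and 2.86 on day 3 and 558, 141, 115, 232 and 175 on day 14 (4.82, standard error 0.72, adjusted p = 0.000139). Its earlier signals lay below the array median. It was thus tested only because of its day 14 signals, and the size of its rise is uncertain. Cyp17a1, the steroid 17-hydroxylase, rose from 378–795 to 3259–7605 (3.12, standard error 0.23, adjusted p = 3.21e-07), and Fmo2 by 1.42. Cyp2b9 fell by 1.35.

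The cytochromes P450 that oxidise steroids and drugs were lower more often than higher, with 13 falls and 7 rises among 30 (median -0.13). Of all genes 22.5% fell and 17.5% rose. Cyp2c70, which hydroxylates bile acids to muricholate in mice, had 29174, 23657 and 28136 on day 1, 27277, 30189 and 30691 on day 3 and 3746, 4993, 8082, 4063 and 3825 on day 14 (-2.57, standard error 0.17, adjusted p = 9.68e-08). Cyp2c29 went from 43206–55146 to 17621–20934 (-1.40, standard error 0.06, adjusted p = 9.83e-09), Cyp2c55 fell by 3.02, Cyp2c54 by 1.34, and Cyp4f14 by 1.48. The Cyp2c genes are near copies of each other and their probe sets can share signal. Cyp2b10, a target of the xenobiotic receptor CAR, rose by 0.90, and Nr1i3, which encodes CAR, by 0.88. Among the glutathione transferases and other NRF2 targets 12 of 27 fell and 4 rose (median -0.33). Gclm, a subunit of the enzyme that starts glutathione synthesis, fell from 9189.6–11901 to 4313–6557 (-1.03, standard error 0.10, adjusted p = 2.29e-06), with -0.09 and no call from its second probe set, and its partner Gclc fell by 0.96. Gstm3 went from 4745–6353 to 710.1–2016 (-2.45) and Aox3, an aldehyde oxidase, from 12615–17702 to 4783–6354 (-1.43). Nqo1 (0.11), the textbook NRF2 target, did not pass, and Srxn1 rose by 0.93.

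Bile acid genes gave 7 rises and 2 falls among 18 (median 0.19). Cyp8b1, which makes cholic acid, rose from 7532–10939 to 19277–27629 (1.49, standard error 0.11, adjusted p = 2.51e-07) and Cyp39a1 from 2179.6–3353 to 7267–9284 (1.62). The phospholipid pump gene Abcb4 rose by 0.85, while Abcb11, the bile salt export pump, fell from 10641–13895 to 4789.8–7984 (-0.86, standard error 0.12, adjusted p = 5.29e-05). The nuclear receptor genes Nr0b2 (0.88) and Nr1h4 (0.40) rose.

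Plasma proteins other than those of the innate defence were mostly higher. Of 25 plasma and apolipoprotein genes 16 rose and 5 fell (median 0.36), counts that became 5 and 5 (median 0.07) after quantile normalization. Apoa4, an apolipoprotein that responds to fasting, rose from 3654–6385 to 21615–31212 (2.44, standard error 0.14, adjusted p = 4.33e-08). Serpina7, the thyroxine-binding globulin, went the other way with 3712, 1004 and 2602 on day 1, 2045, 1789 and 1829 on day 3 and 46.1, 133, 101, 120.2 and 83.5 on day 14 (-4.46, standard error 0.31, adjusted p = 2.06e-07). Complement and coagulation genes fell in 19 of 34 and rose in 8 (median -0.23). C1qa, C1qb and C1qc are made by macrophages and fell by 1.68, 1.55 and 1.04. Among the genes of hepatocytes, the lectin genes Mbl1 (-0.85) and Mbl2 (-0.87) and the clotting factors F10 (-0.83) and F11 (-0.79) were lower, and F5 (0.49), F2 (0.33) and C6 (0.52) higher.

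Acute phase genes went both ways, with 7 rises and 5 falls among 29 (median 0.14, or -0.06 after quantile normalization), shares near the 17.5% and 22.5% of all genes. Lbp, which carries bacterial lipopolysaccharide, rose from 2857–4449.9 to 8593–10477 (1.31, standard error 0.11, adjusted p = 8.67e-07), and haptoglobin, Hp, by 0.63. Steap4, an inflammation-induced metalloreductase, fell from 2989.8–3938 to 917–1436 (-1.62) and Socs3 by 1.24. Saa2, a serum amyloid gene, did not pass (-0.11) and was among the most variable of all: 6405, 1847 and 19235 on day 1, 1682, 1307 and 1063 on day 3 and 49011, 3170.2, 847, 694 and 1416 on day 14. A single day 14 liver was far above the other 4, and replicate 3 led at day 1. The Saa genes are near copies and their probe sets can share signal.

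Interferon-stimulated genes were lower at day 14 in 24 of 31 and higher in 1 (median -0.84). Iigp1, an immunity-related GTPase, had 28739, 24213 and 28840.4 on day 1, 20532, 24772 and 25141 on day 3 and 9331, 15604, 7818, 8483 and 8840.3 on day 14 (-1.38, standard error 0.15, adjusted p = 7.62e-06). Xaf1 fell from 351–712 to 107–169.7 (-1.82, standard error 0.19, adjusted p = 5.58e-06), Oas1a, a sensor of double-stranded RNA, from 407–732 to 184–249.7 (-1.29), and Gbp2, a guanylate-binding protein, by 1.44. Zbp1 (-2.03), Ifit2 (-1.88) and the chemokine Cxcl9 (-1.85) were lower as well, the first and second with day 14 means below the array median. Stat2, the transducer of type I interferon, was the exception and rose by 0.86, and Rsad2 (0.31), Usp18 (-0.34) and Irf9 (-0.33) did not pass. In antigen presentation 9 of 13 fell and 1 rose (median -0.99). The class II genes H2-Aa, from 2418–4085 to 493.1–1016 (-2.05, standard error 0.17, adjusted p = 1.14e-06), and H2-Eb1 (-1.87), with Cd74 (-0.99) and the protease Ctss (-1.66), fell, class I H2-K1 rose by 0.20, and H2-D1 (0.07) and B2m (0.17) did not pass.

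The window of Gbp2 is printed because it holds the letters of the element through which interferon-stimulated genes are known to be turned on. The letters GAAA, 2 bases of any kind and GAAA again were searched on both strands and found for 11 of the 23 tested genes of the list with a window (Bst2, Cxcl10, Gbp2, Gbp3, Ifit1, Ifit3, Igtp, Irgm1, Oas1a, Rsad2 and Stat2) and for 3.99% of all genes with one. Of these 11, Stat2 rose, Rsad2 and Igtp did not pass and the others fell. The match, in capitals, reads on the strand opposite to the gene in chr3:142620413-142620712, GRCm38.p6, plus strand, from RefSeq.
Gbp2: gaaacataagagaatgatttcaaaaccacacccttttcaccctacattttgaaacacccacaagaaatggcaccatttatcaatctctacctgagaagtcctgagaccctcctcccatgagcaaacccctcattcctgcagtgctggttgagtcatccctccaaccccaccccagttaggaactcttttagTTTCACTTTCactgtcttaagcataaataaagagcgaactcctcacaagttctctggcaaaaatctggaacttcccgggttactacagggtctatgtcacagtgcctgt

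Markers of Kupffer cells fell together. All 13 were tested and all 13 fell (median -1.55, beside -0.06 over all genes). Clec4f, a lectin of Kupffer cells alone, had 2903, 2144 and 3528 on day 1, 2736, 3109 and 2906 on day 3 and 1508, 1000.1, 1276, 732 and 607 on day 14 (-1.56, standard error 0.21, adjusted p = 4.81e-05). Vsig4, a complement receptor, gave 4354, 3172 and 4996 on day 1, 3840.2, 3947 and 3861 on day 3 and 1904, 1077, 1026, 636 and 488 on day 14 (-2.12, standard error 0.27, adjusted p = 3.15e-05). Folr2 (-2.30), Cd5l (-1.66), Timd4 (-1.55) and Marco (-1.21) also fell. The summed signal of the 13 markers was 31716 to 44161 at day 1, 32437 to 35743 at day 3 and 12300 to 20715 at day 14. In whole liver, fewer cells of a type and less RNA per cell cannot be told apart. Among markers of monocytes and macrophages at large, 6 of 9 fell and 1 rose (median -1.42). The rise was Fn1 (0.54), which hepatocytes also make, and the falls included Csf1r, from 5349.6–8181 to 1454–3795, and Cd68, from 323–501 to 93.3–177 (-1.79, standard error 0.17, adjusted p = 2.64e-06). C1qa, C1qb and C1qc are members of the Kupffer list, so their falls are not separate from it. The interferon and antigen presentation lists also fell at day 14. In day 14 replicates 1 to 5 the Kupffer list had medians of -0.68, -1.49, -1.39, -1.92 and -2.09. The interferon list had -1.17, -0.615, -0.75, -1.01 and -0.83 in the same order. The part of the macrophage signal in the interferon and antigen presentation results was not tested.

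Of 14 sinusoidal endothelial markers 9 fell and none rose (median -0.46), led by Kdr (-1.13), the receptor of vascular endothelial growth factor, and Clec4g (-1.13). Stab1 (0.20), Lyve1 (0.45) and Pecam1 (0.46) did not pass. Among stellate cell and fibroblast markers 5 of 13 fell and 1 rose (median -0.35). Col3a1, a fibrillar collagen, had 3398, 1688 and 2266 on day 1, 2493, 1483 and 1611 on day 3 and 221, 533, 845, 213 and 477 on day 14 (-2.37, standard error 0.33, adjusted p = 6.68e-05), and Acta2 fell by 1.01, while desmin, Des, rose from 13.2–111 to 221–324 (2.36), from a mean below the array median. Collagen and matrix genes as a whole fell in 12 of 25 and rose in 2 (median -0.46). Many markers of rarer cells were too dim to test: falls were called for 3 of 5 tested markers of T and NK cells out of 15 listed, 2 of 7 of neutrophils out of 13, 1 of 7 of B and plasma cells out of 11 and 1 of 4 of platelets out of 8, beside 22.5% of all genes. These counts rest on few genes: Ccl5 lost its call when any of 9 livers was left out in turn, Cd79b with any of 7 and Ngp with any of 6, and Gzma and Pf4 lost theirs with the 3' to 5' covariate. Those tested for dendritic cells, bile duct and skeletal muscle gave no call. The marker sums of T and NK cells were 682.02 to 892.53 at days 1 and 3 and 499.19 to 687.47 at day 14. Of 4 tested erythroid markers out of 13 listed, 2 fell. Car1 went from 455–590.4 to 110.4–180.1 (-1.82) and Hbb-b2 from 216–424 to 91.5–151 (-1.38), with -0.55 and no call from the second probe set of the latter. Alas2 (-0.18) and Klf1 (-0.22) did not pass. Hba-a2, too dim to test, went the other way, from 6.4–32.4 to 37.6–81.3. Of the pancreatic list, Cela1 fell from 2649–3476 to 807–1240.2 (-1.74, standard error 0.11, adjusted p = 8.22e-08), whereas the acinar markers Cpa1, Cpb1, Ctrb1 and Reg1 were below the array median on every saline array.

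**Figure D3:**
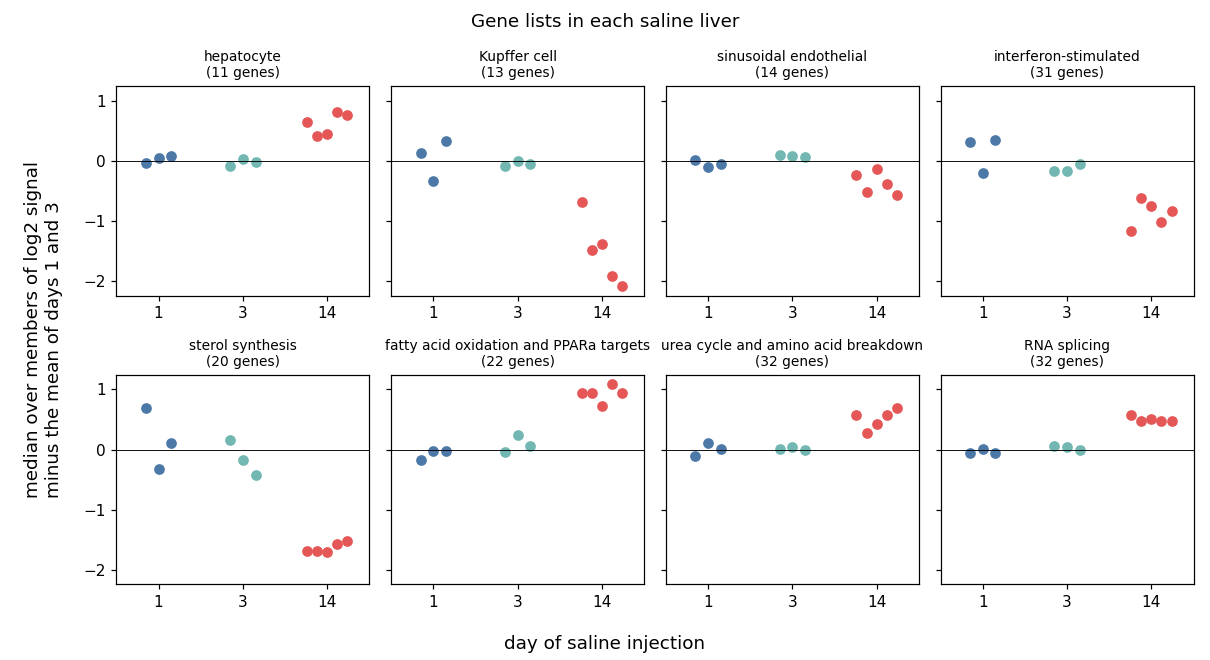
For each saline liver (point), the median over the tested members of a list of the log2 signal minus the gene's mean in the 6 livers of days 1 and 3 (vertical), by day of injection (horizontal), for 8 lists. Kupffer cell markers stood at -2.09 to -0.68 at day 14 and -0.34 to 0.32 before, sterol synthesis at -1.71 to -1.52 and -0.43 to 0.69, and RNA splicing at 0.47 to 0.57 and -0.06 to 0.06.

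In the list of immediate early and p53 genes 4 of 29 rose and 10 fell (median -0.15). Mdm2, which p53 induces, rose from 518–609 to 836–1166 (0.81) and Zfp36, an RNA-binding protein, from 898–2714 to 2225–3297 (0.86), though it was already higher at day 3 than at day 1 (1.21, adjusted p = 0.00455). Egr1, an immediate early factor, gave 5759, 1429 and 1543 on day 1, 7776, 899.6 and 2853 on day 3 and 317, 377, 304, 322 and 321 on day 14 (-2.94, standard error 0.45, adjusted p = 0.000166). The earlier livers were scattered over more than 8-fold and the day 14 livers lay close together and below all of them. Plk3 (-1.52) and Spry4 (-1.49) fell, as did Gadd45a (-1.36), which was already lower at day 3 than at day 1 (-1.66, adjusted p = 0.0156) and whose day 14 minus day 3 difference of -0.53 did not pass. The early genes Fos (-0.25), Jun (-0.12) and Junb (-0.05) did not pass. Heat shock genes rose in 9 of 19 and fell in none (median 0.27). Their median was 0.39 against day 1, 0.21 against day 3 and 0.37 for day 3 minus day 1. Bag3, a co-chaperone, went from 446–1007 to 1359–2654 (1.37, standard error 0.16, adjusted p = 1.58e-05), and Hspa1b, whose near copy Hspa1a can share its signal, had 1455, 1141 and 1505 on day 1, 3021, 2549 and 2638 on day 3 and 3183, 5926, 6377, 23273 and 6644 on day 14 (1.89, standard error 0.35, adjusted p = 0.00073). Replicate 4 of day 14 stood highest. In the unfolded protein response and folding in the endoplasmic reticulum 10 of 25 fell and 4 rose (median -0.25), beside 22.5% and 17.5% of all genes. Sec61b (-1.09) and Xbp1 (-0.57) were lower and Hspa5 (0.34) and Herpud1 (0.52) higher. Derl1 has no settled direction, since the probe set used gave -1.13 and its 3 others 0.19, 0.09 and -0.06, 1 of them called as a rise.

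Respiratory chain and ATP synthase genes gave 13 rises and 13 falls among 53 (median 0.02), which became 3 and 15 when arrays were centred on their median, so this list has no settled direction. Ribosomal protein genes fell in 11 of 35 and rose in 4 (median -0.07), beside 22.5% and 17.5% of all genes. Their median within-day SD was 0.0934 and that of the respiratory list 0.0955, the lowest of the 49 lists, beside 0.222 over all genes. Of 20 cell cycle genes 6 fell and none rose (median -0.53), among them Ccnd1 (-0.93) and the replication helicase subunits Mcm5 (-2.11, with a day 14 mean below the array median) and Mcm6 (-1.12). In iron, zinc and BMP signalling 5 of 23 rose and 10 fell (median -0.23, or 0.06 with the mean of all probe sets). Tfrc, the transferrin receptor, had 732, 549 and 665 on day 1, 519, 688 and 639 on day 3 and 2769, 1911, 1798, 2061 and 1913 on day 14 (1.72, standard error 0.12, adjusted p = 2.39e-07), while Hamp, which encodes hepcidin, had 0.26 and did not pass.

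RNA splicing factors and nuclear RNAs rose in 25 of 32 members and fell in 2 (median 0.52). Clk1, a kinase that phosphorylates splicing factors, had 1292, 1489 and 1097 on day 1, 1847, 1637 and 1118 on day 3 and 3350.5, 2677, 3301, 3599 and 3282 on day 14 (1.22, standard error 0.13, adjusted p = 6.13e-06). The SR protein gene Srsf11 rose from 2163–2636 to 3519.7–4012 (0.67, standard error 0.06, adjusted p = 2.72e-06). The non-coding nuclear RNA Neat1 (1.93) and the splicing factor gene Rbm39 (0.65) rose. Malat1, another such RNA, had 0.98, but was already higher at day 3 than at day 1 (1.13, adjusted p = 0.0052) and differed by 0.41 between days 14 and 3. Hnrnph1 rose by 0.79 on the probe set used, with 0.07 and no call from the other. Rbm5 has no settled direction: the probe set used gave 0.70 and its 3 others -0.36, 1.10 and -0.65, of which 1 was called each way. Hnrnpc (-0.47) and Hnrnpa2b1 (-0.57) fell. Kcnq1ot1, a long non-coding RNA that stays in the nucleus, was outside this list and rose from 49–108 to 472–632 (2.94, standard error 0.19, adjusted p = 9.54e-08), from a mean below the array median. The 18S signal, given above, was also highest at day 14, with mean log2 values of 12.05, 14.68 and 15.35 on days 1, 3 and 14. The splicing list had a median of 0.07 for day 3 minus day 1 and 0.44 for day 14 minus day 3. The part of the 18S signal in this list was not tested.

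**Figure D4:**
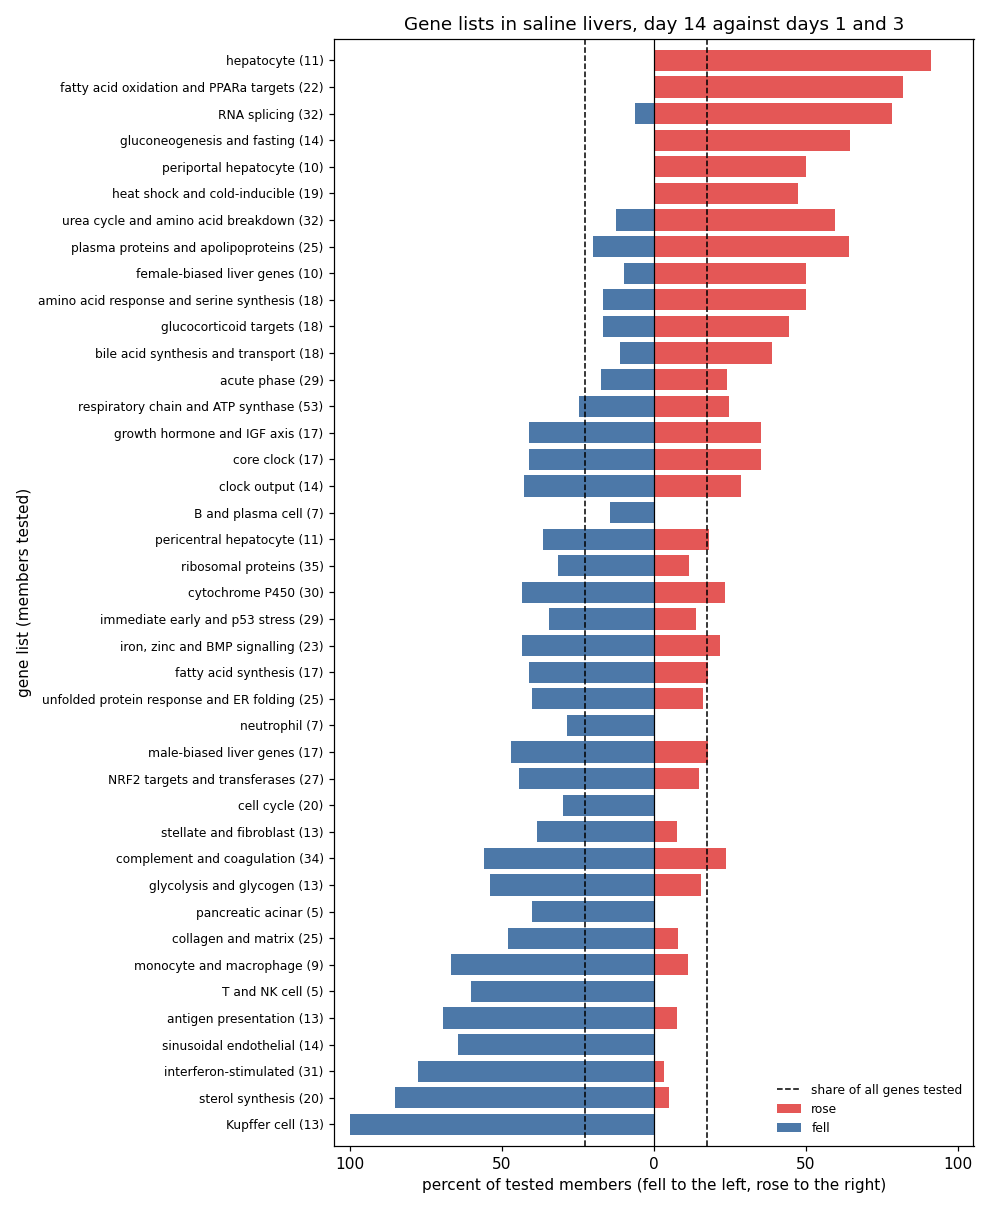
Percent of the tested members of each gene list that rose (right) or fell (left) in day 14 saline livers against days 1 and 3, for lists with at least 5 members tested, with the number tested in brackets. The dashed lines are the shares of all genes tested, 17.5% and 22.5%. Hepatocyte, fatty acid oxidation and RNA splicing lists reach farthest to the right, Kupffer cell, sterol synthesis and interferon lists farthest to the left.

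Several of the largest differences belonged to no list. Ctse, the aspartic protease cathepsin E, had 39.3, 118 and 23 on day 1, 21.5, 13.8 and 4.96 on day 3 and 1022, 1045, 1135, 1140.0 and 1249.8 on day 14 (5.59, standard error 0.40, adjusted p = 2.55e-07). No other gene rose more, but its second probe set gave 0.04. Apart from the 118 of day 1 its earlier signals lay below the array median. It was thus tested only because of its day 14 signals, and the size is uncertain. Gm4274 rose from 3.53–98.7 to 690.4–921 (4.21), from signals near or below the array median. Rbmxl2, a relative of an RNA-binding protein of the testis, rose from 9.66–56.9 to 200.5–251 (3.46). Its earlier signals were all below the array median, and it too was tested only because of its day 14 signals. Gm7969 (2.82), Chrna2 (2.82), a nicotinic receptor subunit, Ppp6r1 (2.78) and 1810014B01Rik (2.73) complete the genes with the largest rises, together with D130051D11Rik (2.99). The earlier means of Chrna2 and D130051D11Rik, like the day 14 means of Clec2h and Trbv13-2 named next, were below the array median. The largest fall was that of Clec2h, a C-type lectin, with 2348, 2413 and 2420.3 on day 1, 1446, 1388 and 1209.5 on day 3 and 48.5, 77, 96.7, 26.2 and 53.7 on day 14 (-5.02, standard error 0.25, adjusted p = 1.92e-08). Its 2 other probe sets were called the same way. Foxq1, a forkhead factor, fell from 878–1887 to 87.7–188 (-3.33) and the pseudogene Serpina4-ps1 from 4501–7911 to 472–739.9 (-3.29), and Trbv13-2, a T cell receptor segment, had -2.96.

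The diclofenac livers of the same days are other animals on other arrays, and share with the saline livers the day and the vehicle. In them the same contrast called 2439 genes (19.6%), 1097 higher (8.81%) and 1342 lower (10.8%). Of the 4979 genes called in saline livers, 2025 (40.7%) were also called there, which is 83.0% of the diclofenac calls, and 2024 of these 2025 had the same sign. The exception, Eva1a, had -0.33 in saline livers and 0.48 in diclofenac livers (adjusted p = 0.0367), and is named for that reason after its values were seen. The sign was shared by 95.1% of the saline calls, called or not, and across the 12450 genes the correlation of the differences was 0.752, as a description, since genes are not independent. Dbp was -3.70 (adjusted p = 0.000782) there against -4.40 in saline livers, Arntl 1.25 (0.00134) against 1.63, Vsig4 -1.94 (0.000492) against -2.12 and Idi1 -3.39 (0.0108) against -3.60. Sterol synthesis had 15 falls and 1 rise among 20, interferon-stimulated genes 19 falls and 1 rise among 31, Kupffer markers 9 falls among 13 and RNA splicing 21 rises and 1 fall among 32. Hsd3b5 was -3.73 without passing (adjusted p = 0.0911), and Cyp8b1, which rose in saline livers, had -0.12 (adjusted p = 0.935). Bhlhe40 fell in saline livers and had 0.18 with diclofenac (adjusted p = 0.799). Whether the time difference was unequal between the treatments was not tested. Without replicate 3 of the diclofenac group at day 14 its count rose to 3826.

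**Figure D5:**
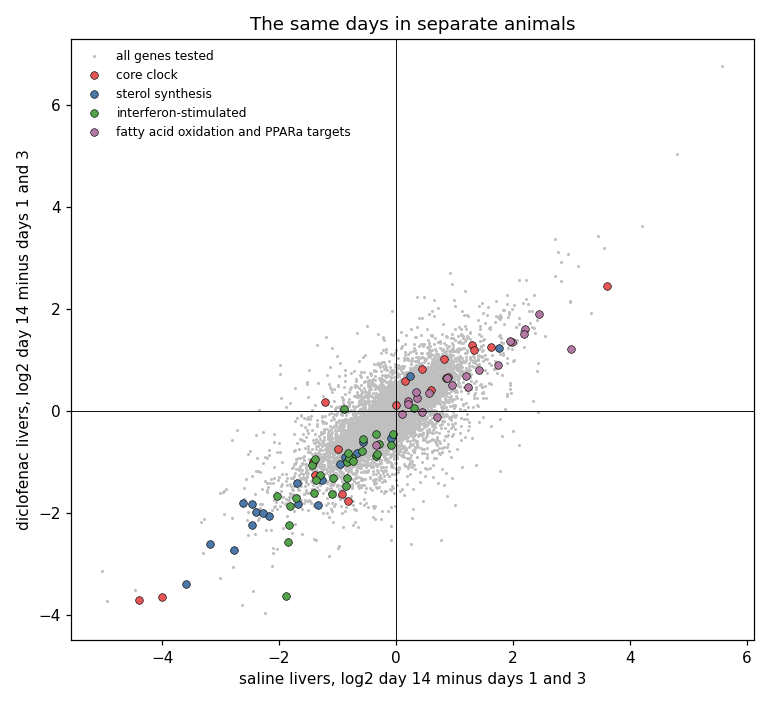
Each point is 1 of the 12450 genes, with its log2 difference of day 14 minus days 1 and 3 in saline livers (horizontal) and in diclofenac livers (vertical). Members of 4 lists are coloured. Clock, sterol, interferon and fatty acid oxidation genes lie mainly in the lower left and upper right, where the sign is shared.

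The spread between untreated animals of 1 day set how small a difference could be seen. The median SD of log2 signal over the tested genes was 0.176 at day 1, 0.166 at day 3 (3 livers each) and 0.224 at day 14 (5 livers), and 0.222 pooled within days. It fell with the signal, from 0.864 in the lowest decile of genes to 0.129 in the highest, and calls were fewest in the lowest decile, with 64 rises and 97 falls. Most of the 15 genes with the largest within-day SD had dim signals, such as Esm1 with a within-day SD of 2.56 and A930017K11Rik with 2.34. An exception was Saa2 (1.97), with signals well above the array median in every liver. Of the clock list, Ciart was also in this set, at 14.7, 267 and 258 on day 1, 269.6, 9.59 and 21.9 on day 3 and 112, 5.85, 34, 27.4 and 63.3 on day 14. Neutrophil markers (median within-day SD 0.924) and the female-biased genes (0.586) were among the more variable lists, and plasma proteins (0.136) and splicing factors (0.141) among the steadier.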

How the data were processed

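Total liver RNA was hybridised to 1 array per liver. The deposited values are linear signal intensities that, per the labels, the authors made with MAS5; the authors' methods add a global median normalization. Each array has a median signal of 75.2 to 89.9. Of 45101 probe sets, 34958 have 1 gene symbol, 932 several and 9211 none; probe sets with 1 symbol were kept, and each of 18194 genes was read from its brightest one by mean saline log2 signal. Log2 signals of the 11 saline arrays were fitted in limma 3.58.1 (R 4.3.3; lmFit and eBayes with a trend on signal, 1 coefficient per day group), two-sided. The number of arrays limits the precision. The labels number the livers and say no more of how the animals were kept apart, so p-values measure the spread between these samples, part of which may be technical. The diclofenac arrays had a fit of their own on the same genes. Genes named are all tested clock genes, the 15 largest rises and 15 largest falls with livers apart, up to 4 per list by adjusted p, and the 15 of largest within-day SD and 20 of highest signal; list members beyond these were named after their values were seen. Members, the 49 lists and tests were chosen with earlier results of these data known. Alternatives were quantile normalization, centring, dropping the filter or raising it to the 60th percentile, the array median added before log2, mean of probe sets, every probe set, all 22 arrays, array weights, a replicate block, a 3' to 5' covariate, a random day block, days 1 and 3 as 1 group, the methods' t-test and leaving out each liver. Replicate numbers did not pair the animals (0 of 9 saline pairs with a correlation over 0.1). Simulated data with known changes were used to check the fit. Tables used Python 3.11.15, pandas 2.3.3, numpy 2.4.6, scipy 1.17.1 and matplotlib 3.10.9.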

Additional observations from a re-analysis of the deposited data

Results flagged for a closer look

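Among the 210 named genes and 5 array measures, 15 genes and 1 measure had a day 14 saline liver set apart from the other 4 by Dixon's criterion, which chance meets in about 1 in 20 groups. Replicate 1 was the highest for the 18S probe sets (mean log2 15.8), lowest for Cd8a (20.8) and highest for Kdr (499.5). Replicate 2 was lowest for the clock repressor Bhlhe40 (564.7 against 911 to 975), for Ms4a6c (86.7), Rps6 (981) and the aminotransferase Tat (26631 against 37820 to 43534), and highest for Egr1 (377) and the interferon target Iigp1 (15604 against 7818 to 9331). Replicate 3 was lowest for Ang4 (1.61) and highest for Cyp2c55 (221). Replicate 4 was highest for Rpl8 (13084) and Sec61b (5121), and replicate 5 lowest for Blnk (1.5) and the platelet gene Pf4 (23) and highest for Krt8 (7673).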

How the results depend on the processing

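Day 14 against days 1 and 3 gave between 3813 and 5151 called genes under 13 of the alternatives, beside 4979. Taking every probe set on its own gave 9138 calls, and the methods' t-test (unadjusted, over 1.5-fold) gave 2314. Leaving out each liver in turn gave 4436 to 4790. For day 14 minus day 1 (4223 genes) the values were 7696 for every probe set, 2490 for the methods' t-test after Benjamini-Hochberg and 2316 unadjusted over 1.5-fold, and 3167 to 4139 without 1 liver. For day 14 minus day 3 (3927 genes) they were 7434, 2536 and 2037, with 1631 under the 3' to 5' covariate and 2957 to 3870 without 1 liver. Day 3 minus day 1 (91 genes) gave 58 with centring, 258 with every probe set, 23 with all 22 arrays, 287 with array weights, 12 with the 3' to 5' covariate, 1 by the methods' t-test after Benjamini-Hochberg and 269 unadjusted over 1.5-fold. Without 1 liver it gave 23 to 108: 38, 54 and 23 without replicates 1, 2 and 3 of day 1, and 40, 26 and 23 without those of day 3. In diclofenac livers (2439 genes) the counts were 5229 with every probe set, 3691 with all 22 arrays, 4433 with array weights, 1612 by the methods' t-test after Benjamini-Hochberg and 1736 to 3826 without 1 liver, the highest without day 14 replicate 3. A replicate block, tried although the numbers did not pair the livers (correlations -0.0445 to 0.0529 in saline and -0.259 to 0.0599 in diclofenac livers), gave 4113 saline calls and 481 in diclofenac livers. With day as a random block 4527 were called (consensus correlation 0.0182).

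The share of calls that were higher moved with scaling and with the probe sets read. Centring gave 28.7% beside 43.7% for day 14 against days 1 and 3, 31.1% beside 42.2% against day 1, 26.8% beside 47.7% against day 3, 77.6% beside 57.1% for day 3 minus day 1 and 33.4% beside 45.0% in diclofenac livers, and the mean of all probe sets and every probe set on its own gave 52.9% and 53.3% for the first. Quantile normalization turned Apoe to -0.075, Cyp3a11 to -0.15, Fabp1 to -0.38, Fgb to -0.24, Gstp1 to -0.20, Mgst1 to -0.10, Serpina1b to -0.14, Ttr to -0.013 and Uqcrb to -0.35, and the mean of all probe sets turned Ghr to 0.37, Tapbp to 0.13 and Tef to 0.12. The cause of these changes was not tested. Of 190 named genes called, 133 kept call and direction under the 14 alternatives read gene by gene and every leave-out, and 182 when each liver was left out. Every probe set on its own was not among these 14. Derl1 and Rbm5, whose probe sets disagree in direction, are therefore not counted as losses. The 8 that lost it were Ccl5, Cd79b, Cela2a, Gstp1, Krt8, Ngp, Per3 and Uty. Of the called genes, 133 had a mean below the array median at days 1 and 3 and 250 at day 14, where the size of a fold is uncertain.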
